A study of Homo sapiens with 26 samples.

Results

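The translation initiation factor genes are the 50 genes whose symbols begin with EIF1 to EIF6 among the 19478 coding transcripts counted in each of 4 deposited tables. The eIF2 kinases (EIF2AK) and EIF1AY were left out by the same rule, which used names alone and no measured value. Counts are ribosome footprints, the mRNA fragments that stay covered by ribosomes after RNase I digestion, assigned to 1 coding sequence per gene. By its title, the series asks whether removing ribosomal RNA with a nuclease distorts such libraries.

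The 26 libraries came from 3 human cell lines, all lysed with cycloheximide. HEK293T, an embryonic kidney line, gave 2 libraries each without depletion and after Ribo-Zero Gold, RiboCop or NEBNext, from fragments of 15 to 35 nt. K562, a chronic myeloid leukaemia line, gave 1 undepleted and 1 NEBNext library at each of 20 to 34 nt and 20 to 60 nt in a size table. Both of those titled undepleted also carry a label that names NEBNext. They are grouped here by title. A second K562 experiment, called the kit table here, used fragments of 20 to 34 nt. FastSelect, riboPools, riboPools with cold elution and no depletion had 2 libraries apiece in it. It also held 4 Ribo-Zero Plus libraries, with oligos, with formaldehyde, with both or with neither. HEK293FT, another embryonic kidney line, gave 1 undepleted library and 1 depleted with custom oligos, from 15 to 35 nt. Totals ran from 46858 counts (K562 undepleted, 20 to 60 nt) to 5795774 counts (riboPools cold elution), and 3 of the Ribo-Zero Plus libraries held only 116742 to 184722. Erythroid markers (globins, GATA1, KLF1 and others) were above 3 counts for 9 of 9 genes in K562, with a summed level of 3524 to 12857 CPM (counts scaled to library total, as in the usual CPM unit). In both HEK lines 0 of these 9 genes passed 3 counts. Of 6 markers listed for the HEK lines, 5 passed 3 counts in HEK293T, 6 in HEK293FT and 2 in K562, where KRT18 was higher (median 462 CPM) than in HEK293T (69.6) or HEK293FT (44.4). The labels do not say whether paired libraries came from separate cultures, so the p-values measure a spread that may be technical.

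Initiation begins when eIF2, bound to GTP, brings the initiator methionyl-tRNA to the small ribosomal subunit together with eIF1, eIF1A, eIF5 and the large scaffold eIF3. The cap-binding complex eIF4F, made of the cap binder eIF4E, the scaffold eIF4G and the helicase eIF4A, recruits the mRNA, and scanning stops at a start codon. eIF2B recharges eIF2 with GTP, eIF5B joins the large subunit, and the 4E-BP proteins hold eIF4E away from eIF4G. Many of these genes are among the most heavily translated in growing cells.

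Start sites of 6 members are shown first, because eIF1 and its paralog are the proteins that monitor start codon choice and their own start sites carry neither favoured base. Each line gives 12 bases before the start codon, the start codon ATG in capitals and 6 bases after it, from GENCODE 29 transcripts on GRCh38.
EIF1: gaatcgtatcgtATGtccgct
EIF1B: cactagtatcgcATGtccact
EIF1AX: gccgccaccgccATGcccaag
EIF4A1: tttctaaggatcATGtctgcg
EIF4A2: gtttttcggatcATGtctggt
EIF3K: gcgacagaagtcATGgcgatg
EIF1 lies at chr17:41688893-41692668 (plus strand), EIF1B at chr3:40309684-40312424 (plus), EIF1AX at chrX:20124518-20141844 (minus), EIF4A1 at chr17:7572826-7579005 (plus), EIF4A2 at chr3:186783547-186789900 (plus) and EIF3K at chr19:38619097-38636955 (plus). A start site was called favourable at 2 places, a purine 3 bases before the ATG and a G right after it. Of 47 members with a complete start site, 4 (8.51%) had neither (EIF1, EIF1B, EIF3B and EIF4E1B), against 6.88% of 17824 transcripts. Both were present in 19 members (40.4%), against 42.5% of all transcripts. Matches of this kind describe the sequence only, and no measurement here reads start codon choice.

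Together the 50 genes took between 1.49% and 1.68% of all counts in every library, whatever the line or kit. Levels within the set covered a wide range. Footprint density, the CPM value divided by the coding length in kilobases, allows genes to be compared. In undepleted HEK293T libraries the highest density belonged to EIF4A1, the eIF4A helicase, at 1899 and 1902. EIF5A, which helps ribosomes through difficult peptide bonds, followed at 1515 and 2031. In the K562 kit table EIF1 led, at 2045 and 2084, ahead of EIF4A1 at 1387 and 1388. At the other end, EIF4E1B, an eIF4E paralog, had 1 count in all 26 libraries together. EIF4E3, another paralog, had 0 to 5 counts in each K562 library and 0 to 24 in the others. EIF4EBP3 reached 13 counts at most and EIF5A2 reached 65. These low genes carry little information on any comparison. EIF4G2, a scaffold that lacks the eIF4E site, is counted here on a partial coding model of 847 nt, so its density is uncertain, and EIF2B5 has no density because its transcript version was not matched.

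Several members share sequence with other genes. How reads that match several genes were counted is not given in the sources used here, so levels of such genes are uncertain. EIF3C and EIF3CL are identical at 99.9% of aligned coding bases and share 99.5% of the 28-nt windows of EIF3C. EIF5A shares 78.2% of its windows with EIF5AL1. All windows of EIF4A1 lie also in the readthrough gene SENP3-EIF4A1. Shares of windows that recur in other annotated genes, mostly processed copies, were 89.3% for EIF4E, 87.4% for EIF4B, 86.9% for EIF1AX, 82.0% for EIF2S2, 79.7% for EIF4E3, 75.2% for EIF4H, 69.8% for EIF3F, 64.1% for EIF2S3, 63.4% for EIF4EBP3, 46.8% for EIF3L, 46.5% for EIF1, 36.3% for EIF6, 32.2% for EIF4A2, 31.9% for EIF3E and 26% for EIF3J. EIF4E2, EIF5, EIF5A2 and 7 others were between 0.1% and 12.3%. They were 0% for EIF1B, EIF2S1, EIF3A, EIF3B, EIF3G, EIF3H, EIF4G1 and EIF4G3, among others. Windows shorter than 28 nt were not checked.

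eIF3 is the largest initiation complex, and its subunits EIF3A, EIF3B, EIF3C, EIF3G and EIF3I make the core that yeast also has, while EIF3D, EIF3E, EIF3F, EIF3H, EIF3K, EIF3L and EIF3M are further subunits. EIF3J binds the complex loosely. The subunits were not translated at equal density in either line, and in undepleted libraries they were more unequal in K562. EIF3K stood at 980 and 1000 in the 2 undepleted libraries of the K562 kit table and at 458 and 573 in HEK293T. EIF3A, the longest subunit, stood at 92.1 and 96.9 in K562 and at 137 and 171 in HEK293T. So the small subunit was higher and the scaffold lower in K562, with no overlap between the lines for either gene. The ratio of EIF3K to EIF3A density was 10.5 ± 0.52 (SD, n = 2) in K562 and 3.44 ± 1.07 (SD, n = 2) in HEK293T. It was 3.46 in the single HEK293FT library and 8.80 and 9.19 in the K562 size table.

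Over 12 subunits (all but EIF3C with its near-identical copy EIF3CL), the SD of log2 density was 0.96 ± 0.02 (SD over libraries, n = 2) in the K562 kit table and 0.58 ± 0.10 (SD, n = 2) in HEK293T. The other undepleted libraries had 0.95 and 0.97 (K562 size table) and 0.55 (HEK293FT). All 4 undepleted K562 libraries therefore lay above all 3 undepleted HEK libraries. Depleted HEK293T libraries ran from 0.68 (RiboCop) to 1.14 (NEBNext), so this held without depletion only. In the K562 kit table the order from high to low was EIF3K, EIF3I, EIF3E, EIF3H, EIF3M, EIF3G, EIF3J, EIF3L, EIF3D, EIF3F, EIF3B and EIF3A. Neighbours in this order had ranges that did not meet in 10 of 11 cases, the exception being EIF3G with EIF3J. In HEK293T only 2 of 11 neighbours were apart, EIF3I above EIF3H and EIF3F above EIF3B, and EIF3E, EIF3K and EIF3I formed a top group. Within it EIF3E lay above EIF3I, and EIF3K overlapped both. A middle group from EIF3H to EIF3F lay between 256 and 352.

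**Figure D1:**
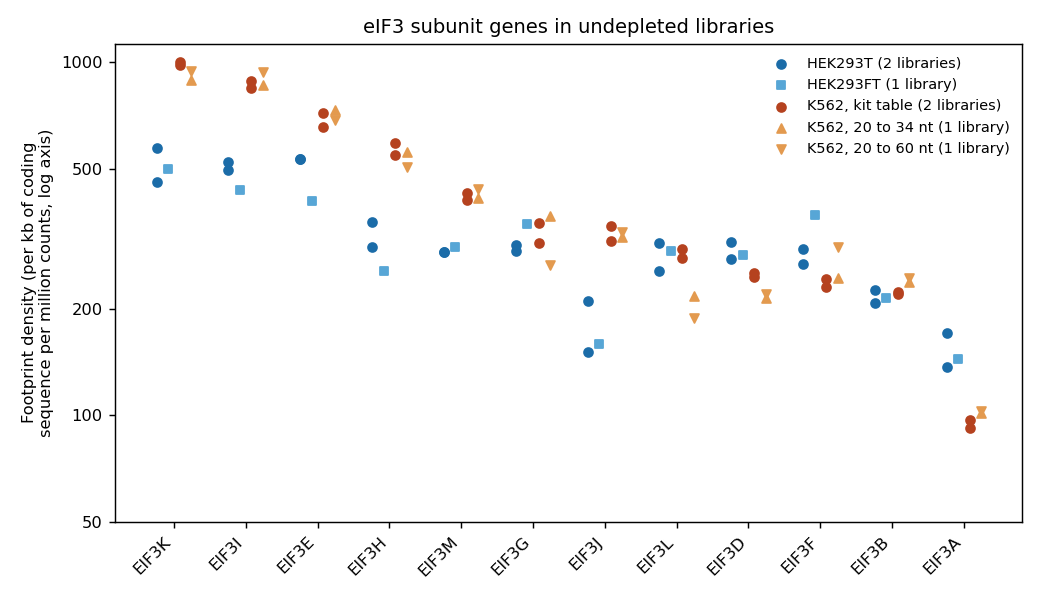
Footprint density of 12 eIF3 subunit genes (without EIF3C and EIF3CL) in the 7 undepleted libraries (vertical log axis, CPM per kb of coding sequence), 1 marker per library. The K562 markers run from about 1000 for EIF3K to under 100 for EIF3A, while the HEK293T and HEK293FT markers cover a narrower range.

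Between tables, the profile over the 12 subunits had Pearson r 0.98 (Spearman rho 0.93) between both K562 tables, 0.92 (0.78) between HEK293T and HEK293FT, and 0.89 (0.87) between HEK293T and the K562 kit table. These are correlations across genes, which are not independent replicates. Density fell with coding length across the subunits, with r -0.77 (rho -0.69) in the K562 kit table and -0.56 (-0.44) in HEK293T. EIF3K codes in 654 nt and EIF3A in 4146 nt. The part of length in this pattern was not tested. Pairs that sit together in the complex differed too. EIF3H over EIF3F, the subunits with MPN domains, was 2.39 ± 0.04 (SD, n = 2) in K562 and 1.16 ± 0.21 (SD, n = 2) in HEK293T. EIF3G over EIF3I was 0.38 ± 0.05 and 0.59 ± 0.04 (SD, n = 2 each). EIF3C and EIF3CL summed had 1.07 and 1.12 times the median subunit density in the K562 kit table and 1.66 and 1.98 times in HEK293T.

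eIF2 showed a flatter profile. Its subunits are EIF2S1 (alpha, the one phosphorylated by the eIF2 kinases), EIF2S2 (beta) and EIF2S3 (gamma, which binds GTP and the tRNA). Densities in K562 were 258 and 290 for EIF2S1, 431 and 433 for EIF2S2, and 397 and 410 for EIF2S3. In HEK293T they were 150 and 228, 202 and 292, and 235 and 331, so EIF2S3 lay above EIF2S1 and EIF2S2 overlapped both. EIF2S3 over EIF2S1 was 1.48 ± 0.15 in K562 and 1.51 ± 0.08 in HEK293T (SD, n = 2 each), a difference smaller than the spread. The highest subunit exceeded the lowest by 1.58-fold ± 0.13 in K562 and 1.79-fold ± 0.22 in HEK293T. The exchange factor eIF2B was less even in K562, where its highest measured subunit exceeded the lowest by 3.65-fold ± 0.72 (SD, n = 2). In the first HEK293T library eIF2B spanned 1.86-fold, with as few as 4 counts, against 1.95-fold for eIF2. In the second it spanned 3.12-fold against 1.64-fold. EIF2B2 was the lowest measured eIF2B subunit in K562, at 30.1 and 40.5, against 125 and 127 for EIF2B3. In HEK293T EIF2B2 stood at 55.4 and 105 and EIF2B3 at 67.6 and 72.1.

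Within eIF4F the helicase far exceeded its partners in every table. EIF4A1 plus EIF4A2 over EIF4E was 8.22 ± 0.47 in K562 and 10.3 ± 2.6 in HEK293T (SD, n = 2 each), which overlap. Against the scaffold these groups separated, since EIF4A1 plus EIF4A2 over EIF4G1 was 16.7 ± 0.90 in K562 and 8.49 ± 0.83 in HEK293T. The gap was narrower over all undepleted libraries. In the K562 size table this ratio was 17.7 (20 to 34 nt) and 12.5 (20 to 60 nt), and in HEK293FT it was 11.5. Every undepleted K562 library still lay above every undepleted HEK library, but 12.5 and 11.5 were close. EIF4G1 over EIF4E was 0.46 and 0.53 in K562 and 0.93 and 1.53 in HEK293T, with 0.68 in HEK293FT. The 4E-BP genes EIF4EBP1 and EIF4EBP2 summed to 1.36 and 1.43 times the EIF4E density in K562 and to 1.45 and 2.82 times in HEK293T. It was 2.74 times in undepleted HEK293FT and 0.88 and 0.90 times in the undepleted K562 size table. The first and second HEK293T libraries held 13 and 24 EIF4E counts, 16 and 16 EIF4EBP1 counts and 4 and 3 EIF4EBP2 counts.

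K562 and HEK293T differed widely in the levels of these genes. Of 47 members tested in undepleted libraries (2 against 2), 16 rose and 10 fell in K562 at an adjusted p under 0.05 (edgeR quasi-likelihood test), 55.3% of those tested, against 35.4% of all 9644 genes (18.5% higher and 16.9% lower). The 50 members, of 19478 genes counted, took 1.49% to 1.68% of all counts in each library. Both shares called were not matched for count level, whose part was not tested. The median log2 difference was 0.27 over the members and 0.02 over all genes. Cell line, experiment and size selection cannot be told apart in this comparison. Scaling by total counts instead of TMM moved all genes by -0.26 on the log2 scale. Changes here are relative to the TMM reference. With total counts the calls were 13 higher and 11 lower, EIF2S1, EIF4B and EIF4H lost theirs, and EIF3D, EIF3F, EIF3L, EIF4E, EIF4E2, EIF5A2 and EIF5B, which were not called, changed sign.

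EIF1, which holds the scanning ribosome open and guards start codon choice, had the smallest adjusted p among the members. It had 693 and 707 CPM in K562 and 225 and 339 in HEK293T. Both K562 libraries were above both HEK293T libraries and above the HEK293FT library at 225. The log2 difference was 1.53 ± 0.15 (SE; adjusted p = 2.29e-23). Its close paralog EIF1B, which shares no 28-nt window with EIF1 despite 82.0% coding identity, rose by 1.60 ± 0.36 (adjusted p = 8.61e-05), from 25 and 58.6 (3 and 9 counts) to 101 and 123 CPM. Both genes therefore moved together, and EIF1B was 12.7% and 14.8% of the summed counts in K562 and 10.0% and 14.8% in HEK293T.

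Another factor of the same step moved the other way. EIF1AX, the X-linked gene of eIF1A, fell by 0.73 ± 0.17 on the log2 scale (adjusted p = 1.87e-04), from 392 and 352 to 203 and 169 CPM. The groups did not overlap here. The undepleted libraries of the K562 size table stood at 310 and 256, however, between the other K562 and the HEK293T values. With the undepleted HEK293FT library at 273, the K562 and HEK ranges overlapped over all undepleted libraries. EIF5, which makes eIF2 hydrolyse its GTP, differed by -0.01 ± 0.21 (adjusted p = 0.981), and EIF5B by 0.17 ± 0.18 (adjusted p = 0.481).

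Scaffold genes of eIF4F were lower in K562. EIF4G3, the paralog of EIF4G1, had 22.0 and 21.3 CPM in K562 (25 and 22 counts) and 217 and 156 in HEK293T (26 and 24 counts). Every undepleted K562 library, including those of the size table at 21.0 and 0, lay below every HEK library. The log2 difference was -2.81 ± 0.32 (adjusted p = 1.81e-17). EIF4G1 itself fell by 1.05 ± 0.11 (adjusted p = 1.19e-21), from 1225 and 1069 to 446 and 476 CPM, again with no overlap. EIF4G2 fell by 0.64 ± 0.20 (adjusted p = 0.00553), from 267 and 280 to 153 and 141, and the call was lost without the second undepleted HEK293T library (adjusted p = 0.135). All 3 eIF4G genes were thus lower in K562, and none of them shares a 28-nt window with another annotated gene.

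The helicase genes moved apart. EIF4A2 rose by 1.10 ± 0.22 (adjusted p = 4.34e-06), from 142 and 150 to 276 and 249 CPM. EIF4A1 had 2316 and 2313 in HEK293T and 1689 and 1690 in K562, a log2 difference of -0.20 ± 0.07 (adjusted p = 0.0141) that was lost without any 1 of the 4 libraries. EIF4E, the cap binder, differed by 0.17 ± 0.26 (adjusted p = 0.655).

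All 3 eIF2 subunit genes rose, with log2 differences of 1.09 ± 0.17 (EIF2S2), 0.76 ± 0.20 (EIF2S1) and 0.73 ± 0.14 (EIF2S3). EIF2S2 had 431 and 432 CPM in K562 and 292 and 202 in HEK293T. Of the 5 eIF2B genes, EIF2B3 rose by 1.10 ± 0.27 (adjusted p = 2.67e-04), from 91.7 and 97.7 to 170 and 173 CPM. EIF2B2 fell by 0.99 ± 0.36 (adjusted p = 0.0215), from 58.3 and 111 to 31.7 and 42.6 CPM. The EIF2B2 call rested on few counts, 7 and 17 in HEK293T, and was lost without the second HEK293T library (log2 -0.40, adjusted p = 0.688) and without the first K562 library (-0.78, adjusted p = 0.109). EIF2B1, EIF2B4 and EIF2B5 had log2 differences of 0.56, 0.69 and 0.66 and were not called.

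Of 14 eIF3 genes, 6 rose and 2 fell. EIF3K rose by 1.21 ± 0.14 (adjusted p = 1.08e-15), from 375 and 300 to 641 and 654 CPM. EIF3J, EIF3H, EIF3I, EIF3M and EIF3E rose by 1.08, 1.04, 1.02, 0.78 and 0.62. EIF3A fell by 0.47 ± 0.13 and EIF3C by 0.33 ± 0.12. EIF3C cannot be told from EIF3CL, which had -0.26 ± 0.12 (adjusted p = 0.0785). Over the same 12 subunits the log2 difference went with coding length at r -0.82 (rho -0.78), against -0.38 (-0.22) over the 46 members tested with a known length and -0.12 (-0.14) over 9403 genes.

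Among the remaining members, EIF6, which keeps the large subunit apart from the small one, rose by 0.88 ± 0.22 from 142 and 156 to 236 and 227 CPM. EIF5A and EIF5AL1, which share most of their 28-nt windows, fell by 0.39 ± 0.11 and 0.38 ± 0.13. The eIF4A cofactors EIF4B and EIF4H rose by 0.45 ± 0.14 and 0.38 ± 0.15. Several of the smaller changes rested on single libraries. Without the second undepleted HEK293T library the calls of EIF3A, EIF4B, EIF4H, EIF5A and EIF5AL1 were lost (adjusted p 0.338, 0.350, 0.889, 0.626 and 0.136), and without the first those of EIF2S1 and EIF3C (0.118 and 0.419). Leaving out the first K562 library cost EIF3C its call (0.117) and leaving out either K562 library cost EIF4H its call. EIF4A3, the eIF4A relative of the exon junction complex, differed by -0.12 ± 0.16. EIF2A and EIF2D, which can deliver initiator tRNA without eIF2, had log2 differences of 0.41 and 0.83 and were not called. Neither were EIF1AD, EIF4E2, EIF4EBP1, EIF4EBP2, EIF4ENIF1 and EIF5A2, with values from -0.73 to 0.42, and EIF4E1B, EIF4E3 and EIF4EBP3 were too low to test. Taking all 7 undepleted libraries, 15 of 50 members lay higher in every K562 library than in any HEK library and 13 lay lower. Together 56.0% had no overlap, against 39% of 9644 tested genes (1414 higher and 2349 lower in K562), again not matched for count level. These ranges are of CPM, scaled by total counts and not by TMM. Of 27 further genes listed for the pathway (kinases and phosphatases of eIF2, poly(A) binding proteins and regulators), 26 were tested, and 6 rose (PPP1R15A, DAP, PAIP1, PAIP2, BZW2 and MKNK2) and 4 fell (PDCD4, PPP1R15B, DHX9 and DDX3X), a share near the 35.4% of all genes. DAP and BZW2 rose by 2.07 ± 0.48 and 1.20 ± 0.25, while PDCD4, an inhibitor of eIF4A, fell by 0.71 ± 0.27. PPP1R15A, a subunit of the eIF2 phosphatase, was at 0 counts in both undepleted HEK293T libraries, so no fold is given.

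**Figure D2:**
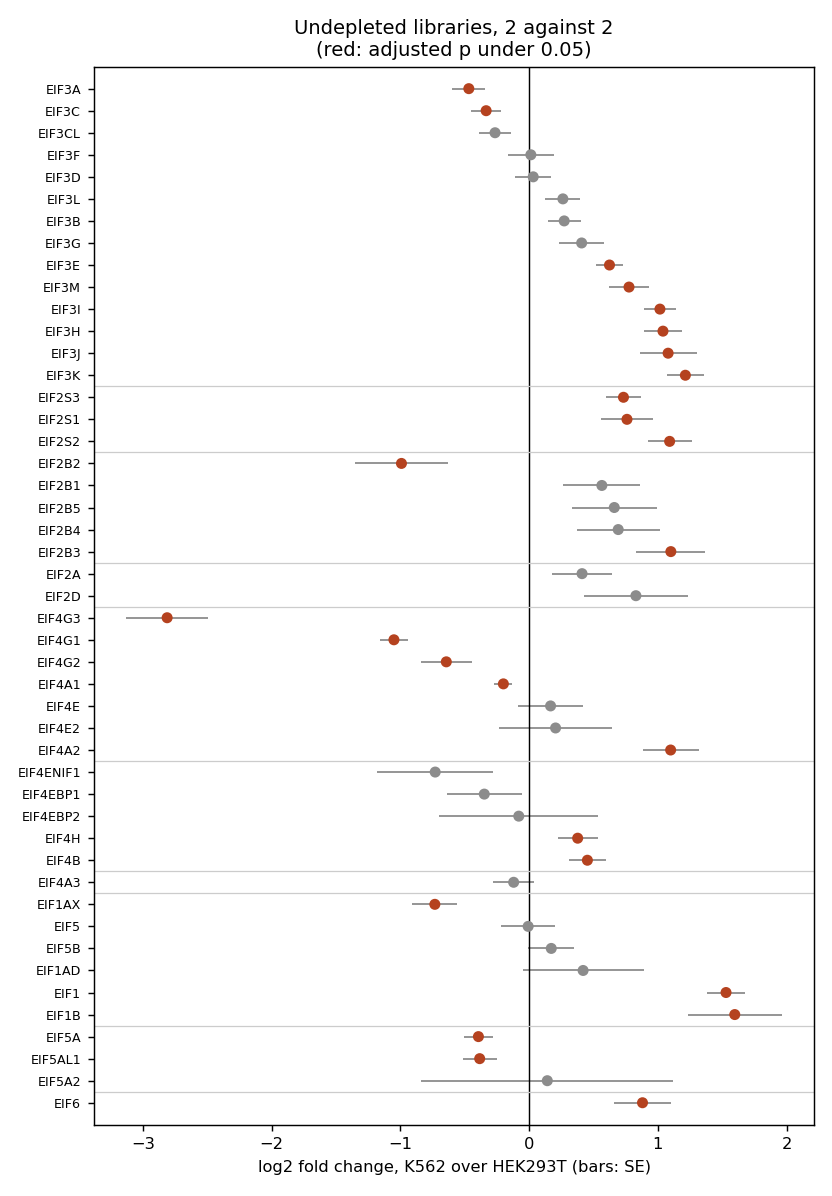
Log2 fold change of undepleted K562 over undepleted HEK293T libraries (2 against 2) for the 47 members tested, grouped by complex, with SE bars. Red points have an adjusted p under 0.05. The 3 eIF2 genes lie to the right and the 3 eIF4G genes to the left.

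The EIF4A2 share separated the lines. EIF4A2 took 13.4% ± 0.84 (SD, n = 2) of the summed EIF4A1 and EIF4A2 density in undepleted K562 libraries of the kit table and 5.91% ± 0.23 (SD, n = 2) in HEK293T. By counts the HEK293T share was 5.76% and 6.08%, from 17 and 23 EIF4A2 counts (95% exact binomial intervals 3.39 to 9.07 and 3.90 to 8.99). It was 12.7% (9.54 to 16.5) and 15.1% (7.77 to 25.4) in the undepleted libraries of the K562 size table. In undepleted HEK293FT the share was 2.99% (2.31 to 3.81). Over all kits it ran from 10.3% to 14.3% in the K562 kit table, from 12.7% to 23.5% in the size table and from 4.1% to 6.4% in HEK293T. The lines did not overlap in any library. EIF4A1 and EIF4A2 are 76.4% identical in coding sequence and share no 28-nt window. The interval covers counting error only, because reads copied by PCR are not independent molecules.

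EIF4G3 took 4.70% and 4.29% of EIF4G1 plus EIF4G3 counts in undepleted K562 libraries and 15.0% and 12.8% in HEK293T. In the size table the undepleted libraries gave 4.55% and 0 of 23 counts, which allows a share of up to 13% by a limit of 3 counts (exact 95% binomial upper bound 14.8%). Over all kits its share lay between 10.2% and 15.2% in HEK293T and between 2.35% and 19% in the K562 kit table, where the highest value came from the formaldehyde Ribo-Zero Plus library with 8 EIF4G3 counts. For EIF4E2, a cap binder that represses translation, the median share against EIF4E was 26.8% in HEK293T and 25.1% in the K562 kit table. EIF5AL1 held a median 39% and 41.6% of its sum with EIF5A, and EIF3CL held 48.5% and 49.7% of its sum with EIF3C. The latter 2 shares describe the assignment of nearly identical sequence as much as translation.

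**Figure D3:**
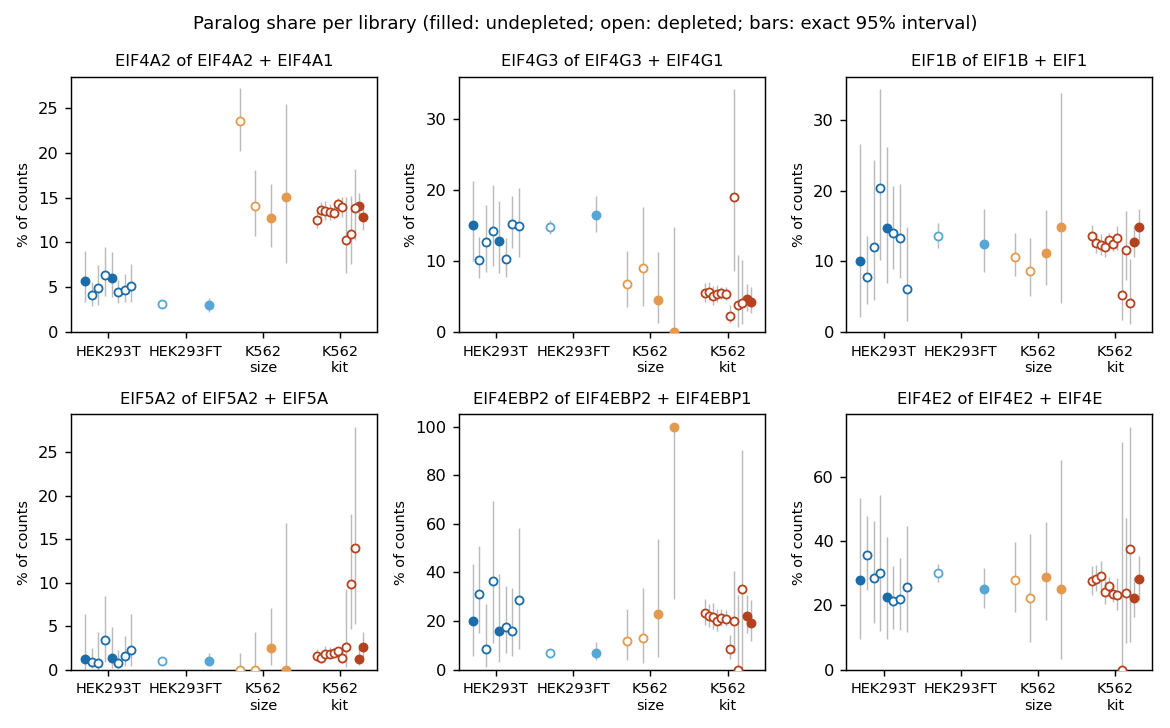
Percent of summed counts taken by the second member of 6 paralog pairs, 1 point per library with exact 95% binomial intervals, filled for undepleted and open for depleted libraries. The EIF4A2 share is about 3% to 6% in the HEK lines and above 10% in K562, and the EIF4G3 share is lower in most K562 libraries.

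No member passed the test after the kits that pull ribosomal RNA out with probes or block its reverse transcription. All kit comparisons in a table share the undepleted libraries. In HEK293T, 0 of 44 members tested were called after Ribo-Zero Gold (0.068% of 4410 genes) or RiboCop (0% of 4410 genes) by edgeR, with 2 and 1 members at an unadjusted p under 0.05, and DESeq2 called 0 as well. In K562, 0 of 47 were called after FastSelect (0.0198% of 10078 genes, 0.00992% in each direction), riboPools (0.0794%, 0.0695% higher and 0.00992% lower) or riboPools with cold elution (0.258%, 0.159% higher and 0.0992% lower), with 2, 3 and 1 members at an unadjusted p under 0.05 and 0 by DESeq2. The member with the smallest p was EIF2B1 after FastSelect (log2 0.28 ± 0.11, adjusted p = 0.851), EIF1AX after riboPools (0.20 ± 0.09, adjusted p = 0.770) and EIF3C after cold elution (-0.10 ± 0.05, adjusted p = 0.777). Member log2 differences spanned -0.39 to 0.34 for FastSelect, -0.19 to 0.24 for riboPools and -0.18 to 0.24 for cold elution. The subunit spread of eIF3 was 0.98 after each of these 3, against 0.96 undepleted.

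NEBNext, which digests ribosomal RNA paired with DNA probes, gave few calls. In HEK293T 2 of 44 (4.55%) were called, both lower. The share was near the 3.24% of 4410 genes (1.5% higher and 1.75% lower). EIF3J, the loosely bound eIF3 subunit that acts in the mRNA channel, had 14 and 25 counts undepleted and 7 and 6 after NEBNext, or 117 and 163 against 52.5 and 29.8 CPM. The groups did not overlap, and the log2 difference was -1.84 ± 0.44 (adjusted p = 0.00176). After Ribo-Zero Gold EIF3J had 76.8 and 52.2 CPM (log2 -1.16 ± 0.33, adjusted p = 0.246) and after RiboCop 102 and 72.3 (-0.78 ± 0.35, adjusted p = 0.998). All 6 depleted HEK293T libraries were thus below both undepleted ones for this gene, although the other 2 kits gave no call. The NEBNext call was lost without the second undepleted library (adjusted p = 0.204) or the second NEBNext library (0.246).

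EIF1AX fell with NEBNext in both lines. In HEK293T it went from 392 and 352 to 262 and 189 CPM, a log2 difference of -0.74 ± 0.23 (adjusted p = 0.0469). This call was lost by DESeq2, with no filter on low counts and in a fit of both groups alone. In the K562 size table EIF1AX went from 310 and 256 to 118 and 115, a log2 difference of -1.27 ± 0.29 (adjusted p = 0.00113). All 4 NEBNext libraries were below the undepleted libraries of their own table. The difference between both effects was -0.52 ± 0.36 (adjusted p = 0.798). The K562 value takes the undepleted libraries by their titles, which their other label contradicts, and the undepleted libraries of the K562 kit table had 203 and 169. The HEK293T call was lost in 3 of the 4 fits that leave out a library, all but the one without the first NEBNext library (adjusted p 0.176 to 0.557 in the 3), and the K562 call in 2 of 4 (0.571 and 0.711, without either 20 to 34 nt library).

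In K562 NEBNext gave 3 calls among 41 members tested, or 7.32%, against 2.72% of 3715 genes (1.75% higher and 0.969% lower). Beside EIF1AX, EIF3L rose by 0.74 ± 0.21 (adjusted p = 0.0282), from 368 and 320 to 635 and 416 CPM. EIF3I fell by 0.61 ± 0.18 (adjusted p = 0.0387), from 841 and 918 to 560 and 521. Both sets of libraries were apart for both genes. Each call was lost, however, when any 1 of 3 libraries was left out, the exception being the 20 to 60 nt NEBNext library. Counting every alternative fit, each gene kept its call in 3 and lost it in 5, DESeq2 among the latter. In HEK293T the same genes had log2 differences of 0.40 ± 0.17 (adjusted p = 0.216) and 0.11 ± 0.18 (adjusted p = 0.847) with NEBNext.

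EIF3J was the only member whose NEBNext effect differed between the lines in an interaction test (1 of 43, against 0.296% of 4736 genes, 0.169% higher and 0.127% lower). In K562 it had 247 and 256 CPM undepleted and 299 and 245 after NEBNext, with overlap and a log2 difference of 0.24 ± 0.26 (adjusted p = 0.756). The K562 effect exceeded the HEK293T effect by 2.10 ± 0.51 (adjusted p = 0.0363). This call was lost without the first or second undepleted HEK293T library (adjusted p 0.202 and 0.466) or the second NEBNext library (0.504), with total counts (0.059), with a replicate block (0.172) and by DESeq2. K562 libraries were not left out in turn.

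The spread over the eIF3 subunits in HEK293T went from 0.58 ± 0.10 undepleted to 1.09 ± 0.07 after NEBNext, 0.85 ± 0.10 after Ribo-Zero Gold and 0.73 ± 0.07 after RiboCop (SD over 2 libraries each). EIF3J was the lowest subunit in all 6 depleted HEK293T libraries, with 6 to 27 counts, while EIF3A was the lowest in both undepleted ones. In K562 the NEBNext libraries had 0.98 and 0.92.

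**Figure D4:**
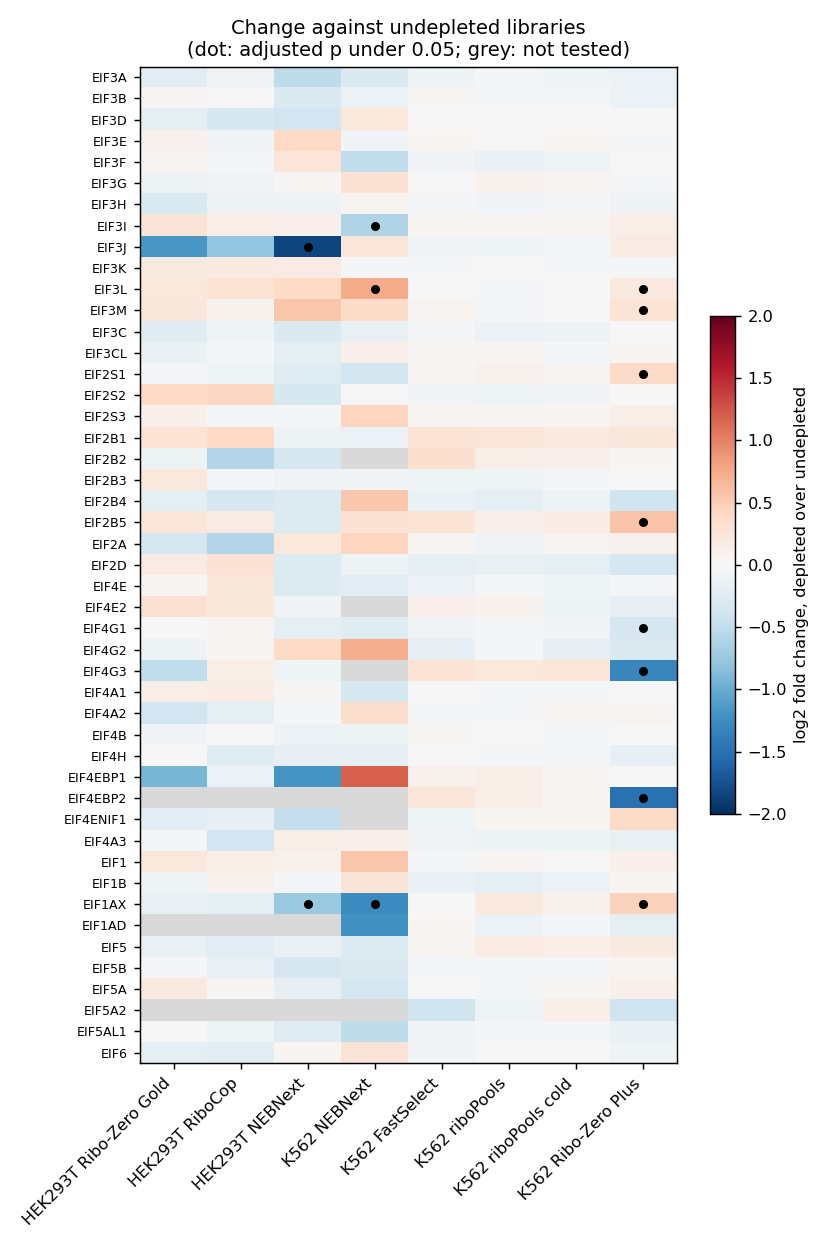
Log2 change of each member against undepleted libraries of its own table (colour) for 8 kit comparisons, with a dot where the adjusted p was under 0.05 and grey where the gene was not tested. FastSelect and both riboPools columns are pale throughout, and most dots lie in the Ribo-Zero Plus column.

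Ribo-Zero Plus, another kit that uses a nuclease, gave 8 calls among 47 members in the library with neither addition, or 17.0%, against 20.6% of 10078 genes (8.95% higher and 11.7% lower), a share near the background. The rises were EIF2B5 (0.58 ± 0.14), EIF1AX (0.46 ± 0.10), EIF2S1 (0.39 ± 0.09), EIF3M (0.27 ± 0.07) and EIF3L (0.19 ± 0.07). EIF1AX had 203 and 169 CPM undepleted and 253 after Ribo-Zero Plus, opposite in direction to its NEBNext values. EIF4EBP2, a 4E-BP, fell by 1.5 ± 0.42 (adjusted p = 0.00517), with 26 and 18 counts undepleted and 13 in the deeper Ribo-Zero Plus library. EIF4G3 fell by 1.30 ± 0.39 (adjusted p = 0.00984), from 25 and 22 counts to 16, and EIF4G1 by 0.33 ± 0.07 (adjusted p = 4.17e-04), from 446 and 476 CPM to 362. The kit side of this test is 1 library, assumed to vary like the replicated groups. EIF4EBP2, EIF4G3 and EIF3L lost their calls without the first undepleted library (adjusted p 0.082, 0.053 and 0.226) and EIF2B5 without the second (0.064).

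Over all genes, each library with an addition scattered more than the deep one, and among the members both libraries with formaldehyde did. Each member's count was set against the count expected from the undepleted libraries at the same depth, over members expected at 10 or more counts. With neither addition 2 of 47 members were at least 2-fold away, against 11.4% of all genes. With formaldehyde it was 8 of 38 (22.5% of all genes), with oligos 1 of 40 (21.3%) and with both 8 of 40 (24.3%). The member shares with formaldehyde, 21.1% alone and 20% with oligos, were not above those of all genes. Libraries with additions held 116742 to 184722 counts and the deep one 1840190, so depth and additions cannot be told apart. EIF2B5, the catalytic subunit of eIF2B, showed the widest swing. It had 250 counts with neither addition (1.49-fold the undepleted level by edgeR). With formaldehyde it had 0 where 10.7 were expected, and with oligos 2 where 16.9 were expected. The library with both additions had 17 where 15.2 were expected, so the low values did not recur there. In a fit that averages all 4 libraries, with terms for both additions, none of the 8 calls remained and 6 other members were called, 1 higher and 5 lower. The median log2 difference of all genes moved there, to -0.43 from -0.01 in the fit without the shallow libraries. The 5 members that had risen were at -0.029 to -0.42, each above that median.

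**Figure D5:**
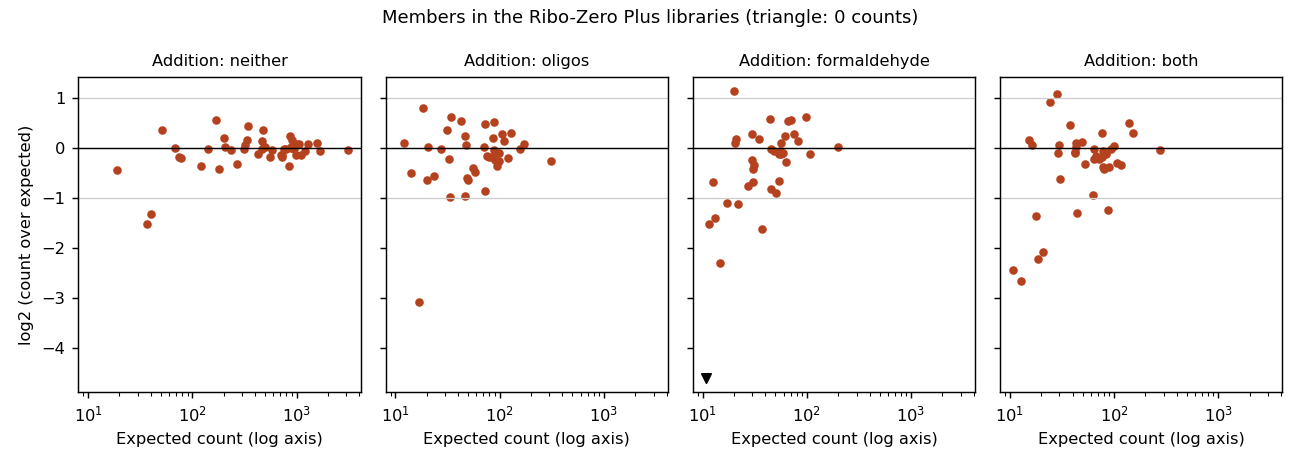
Log2 of the member count over that expected from undepleted libraries (vertical) against the expected count (horizontal log axis), 1 panel per Ribo-Zero Plus library and 1 point per member. A triangle marks 0 counts. Among members expected at 10 or more counts, 8 lie at least 2-fold away in each library with formaldehyde, 1 in the oligo library and 2 in the deep one.

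Custom oligos in HEK293FT left the members close to their undepleted levels. With 1 library a side there is no test. Of 44 members with a mean of at least 100 counts, 1 passed 1.5-fold (1.3% of 5225 genes), EIF4ENIF1, the eIF4E transporter, with 31 counts undepleted and 310 depleted, or 34.4 and 53.9 CPM. The median log2 ratio of the members was 0.00. EIF3J had 123 and 104 CPM there, and EIF1AX 273 and 285.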

How the data were processed

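The authors deposited raw whole-number counts of ribosome footprints per coding sequence, 1 table per experiment, with transcript and gene names and no normalization. Per the labels' protocols, lysates with cycloheximide were digested with RNase I and ribosomes were collected by ultracentrifugation. The submitters' processing notes name CASAVA 1.8, STAR and GRCh38 (hg38). The counting tool, its strand setting and its handling of reads that match several genes are not given in the sources used here.

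Groups follow the sample titles. Differences were tested with edgeR 4.0.16 (R 4.3.3, quasi-likelihood test, TMM, filterByExpr with a minimum count of 10) on all genes of a comparison, with Benjamini-Hochberg adjustment and a threshold of 0.05. The 3 shallow Ribo-Zero Plus libraries were left out of the K562 kit fit, and the HEK293FT library entered the cell line fit. The K562 NEBNext fit had a size term and 1 residual degree of freedom. DESeq2 1.42.0, other scalings, no filter and left-out libraries were alternatives. Members and lists were chosen with earlier results of these data known, and 1 listed marker gene is not reported here. The named genes are every called member (the 5 largest rises and 5 largest falls where over 10), the member with the smallest p where none was called, and the complex subunits.

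On simulated counts with 200 changed genes, edgeR recovered 100% of 2-fold changes for HEK293T NEBNext (4410 genes) and 98% for K562 FastSelect (10078 genes). It recovered 90% for Ribo-Zero Plus (10078 genes) and 87% for K562 against HEK293T (9644 genes). False calls ran from 3.06% to 7.04%. These shares need not hold for members at low counts. In HEK293T, members at log2 -1.18 after NEBNext and -1.16 after Ribo-Zero Gold were tested and not called. An absence of calls there does not exclude 2-fold changes. Start sequences, coordinates and coding lengths come from GENCODE 29 on GRCh38, matched for 49 of 50 members. Intervals and floors cover counting error only. Depth set the precision: HEK293T libraries held 120019 to 421521 counts.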

Additional observations from a re-analysis of the deposited data

Results flagged for a closer look

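The NEBNext effect on EIF3J differed between the lines in the test of the difference itself, by 2.10 ± 0.51 on the log2 scale (edgeR, adjusted p = 0.0363). The call was lost with total counts (adjusted p = 0.059), with DESeq2, with a replicate block (0.172) and without 3 of the 4 HEK293T libraries left out in turn (0.202 to 0.504). EIF3J fell in HEK293T, from 14 and 25 counts to 7 and 6, and had 47 and 12 counts undepleted and 132 and 49 after NEBNext in K562. Levels were lower in 2 of 2 NEBNext libraries of HEK293T and showed no shared direction in K562. The undepleted K562 libraries carry a second label that names NEBNext. Cell line, experiment and size selection cannot be told apart here, and 26% of the 28-nt windows of EIF3J recur in another annotated gene, whose part in the result was not tested.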

How the results depend on the processing

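For NEBNext in HEK293T, 2 members were called, EIF3J and EIF1AX. EIF1AX lost its call by DESeq2, with no filter and in the fit of both groups alone. DESeq2 called 0 (13 members, EIF3J among them, had no adjusted p), no filter gave 1, a fit of both groups alone gave 1, and leaving out 1 library gave 0 to 2. For NEBNext in K562, DESeq2 called 0 of the 3 (19 members without an adjusted p). Leaving out 1 library with the size term dropped, an alternative chosen after seeing the data, gave 0 to 6 calls: 0 without either 20 to 34 nt library, 1 without the undepleted 20 to 60 nt library and 6 without the NEBNext 20 to 60 nt library. The interaction call of EIF3J went from 1 to 0 with total counts (adjusted p = 0.059), with DESeq2 and with a replicate block (adjusted p = 0.172), and to 0 to 1 when 1 HEK293T library was left out. For Ribo-Zero Plus, DESeq2 called 5 and leaving out 1 undepleted library gave 5 to 8. With all 12 kit libraries 6 were called, 0 of them among the 8, and the log2 differences of EIF2S1, EIF2B5, EIF1AX, EIF3M and EIF3L became -0.029, -0.42, -0.24, -0.065 and -0.21, all above the median of all genes in that fit (-0.43). For K562 against HEK293T, leaving out 1 library gave 19 to 24 calls, and EIF2B2 was not called by DESeq2 (adjusted p = 0.0919). With no filter 3 members passed 1.5-fold with custom oligos. The eIF3 spread was 1.004 without EIF3J, 0.918 with EIF3C plus EIF3CL, 0.580 in HEK293T and 0.941 to 0.976 over single libraries. The EIF4A2 share was 5.91% in HEK293T and 12.8% to 14% over single K562 libraries.

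Replicate numbers are shared between groups. Deviations of same-numbered libraries correlated at 0.065 to 0.136 in HEK293T (369 genes) and at -0.049 to 0.020 in the K562 kit table (4747 genes). Replicates differed little beyond counting noise, with a chi-square per degree of freedom of 1.03 to 1.20. Low correlations therefore cannot exclude that same-numbered libraries share a source. The replicate block gave 2 calls for HEK293T NEBNext, 9 for Ribo-Zero Plus and 25 for K562 against HEK293T, and 0 for the other 5 kit comparisons. The RiboCop libraries differed by no more than sampling noise in a chi-square test of their counts over genes, but had different totals and were both kept. Low counts limit EIF3J, EIF1B, EIF2B2, EIF4G3, EIF4A2, EIF4E, EIF4EBP1 and EIF4EBP2 in HEK293T and every member in the 46858-count library.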
